A study of Drosophila montana and Drosophila virilis with 10 samples.

Results

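Gene expression was compared between whole flies of D. montana and D. virilis that had been kept at ambient temperature and not cold acclimated. The comparison rests on 5 of the 10 libraries of the series, chosen by their titles: 3 control pools of D. montana and 2 control pools of D. virilis. Each D. montana pool held 10 flies of strain 175OJ8, which came from Oulanka in Finland, and the pools were 21, 22 and 23 days past eclosion by their labels. Each D. virilis pool held 20 flies of strain TOY3F9, which came from Toyama in Japan, at stated ages of 27 and 28 days. The other 5 libraries are cold-acclimated pools of the same strains and pool sizes, 3 of D. montana with stated ages of 24 to 26 days and 2 of D. virilis with 29 and 30 days. No age occurs for more than 1 library, and in accession order they step evenly through 21 to 30 days, so they may not be the true ages of the flies. All libraries were sequenced on SOLiD instruments, of which the series names 2 models; the model behind each library is not stated.

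Both are members of the virilis group of Drosophila, related species whose genomes differ in sequence as well as in regulation. D. montana lives at high latitudes and altitudes and is among the more cold-tolerant flies of the group, whereas D. virilis has a more southern range and is often found near people. Read counts per gene are counts of reads that could be placed on a common annotation, so a level in one species against the other reflects both the abundance of the RNA and how well its reads match that annotation. Species here cannot be told apart from strain, pool size, stated age, depth or match to the one annotation used. Every difference below is therefore a difference between these 2 sets of pools. In whole flies, fewer cells of a type and less RNA per cell cannot be told apart either. The labels do not tie the pools of a group to separate cultures, and the p-values below cover only the variation among the pools at hand, some of which may be technical.

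All 5 files held the same 15342 identifiers, 15341 of them of the FlyBase gene form and 1 of the transcript form. No file pairs them with names, and the RefSeq gene table used here, which covers a D. montana assembly, matched 0 of them. Identifiers are therefore given as deposited, without gene names, roles, sequences or coordinates, and tissue markers of whole flies could not be looked up.

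The gene counts drew on different parts of the libraries in the 2 species. No file counted any read as not aligned, so the shares below do not show how many sequenced reads failed to align. Reads on genes made up 25.5% ± 0.92 (SD, n = 3) of all reads in the files of D. montana and 9.55% ± 0.0035 (SD, n = 2) in those of D. virilis. Reads aligned to more than 1 place, which were not counted on genes, made up 19.0% ± 0.08 in D. montana and 76.6% ± 1.4 in D. virilis. Reads outside annotated genes made up 55.5% ± 0.98 and 13.9% ± 1.4. None of these shares overlapped between the species, and 3 pools against 2 cannot give a two-sided p below 0.20 in the exact permutation test, which each of them reached (adjusted p = 0.24 over 12 library measures). Among reads placed once the order turned, with 31.5% ± 1.2 on genes in D. montana and 40.8% ± 2.5 in D. virilis. The totals on genes were 1732234, 1518027 and 1985732 reads in the D. montana pools against 650517 and 931704 in the D. virilis pools.

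**Figure D1:**
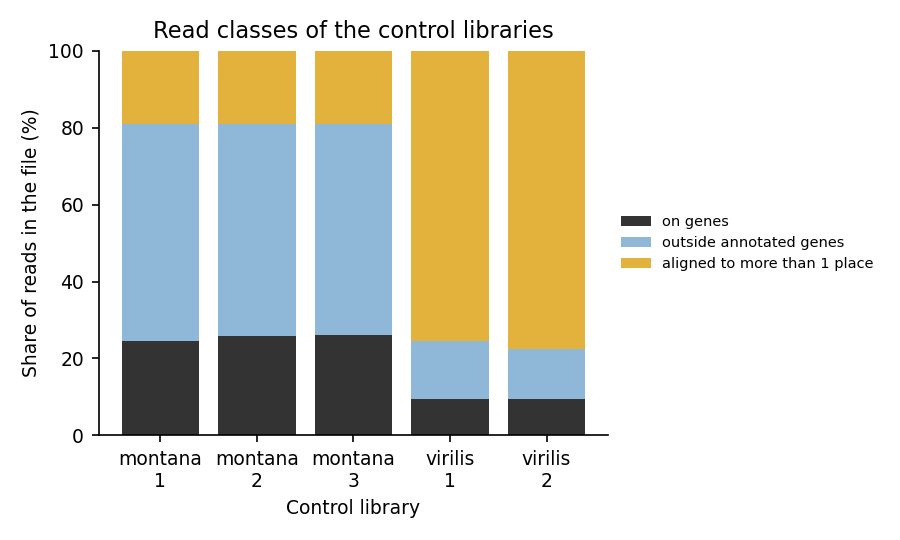
Share of the reads in each control file (percent, bars from 0 to 100) that fell on genes, outside annotated genes or on more than 1 place. The 3 D. montana files (montana 1 to 3) have 24.5% to 26.2% of reads on genes and the 2 D. virilis files (virilis 1 and 2) have 9.54% and 9.55%, and the share aligned to more than 1 place is 18.9% to 19.1% in D. montana and 75.6% and 77.6% in D. virilis.

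More identifiers received reads in the D. montana pools, also at equal depth. At least 1 read was counted for 13523, 13408 and 13692 identifiers in D. montana and for 11774 and 10593 in D. virilis. Thinned to 650517 gene reads, the total of the smallest library, the expected numbers were 12276 ± 43 (SD, n = 3) in D. montana and 10992 ± 1106 (SD, n = 2) in D. virilis. The lowest D. montana pool lay above the highest D. virilis pool, but the gap between the species was close to the spread between the D. virilis pools (p = 0.20 in the two-sided exact permutation test, its minimum). The difference of 1284 identifiers became 502 without D. virilis pool 2 and 2066 without pool 1. For identifiers with at least 10 reads the thinned numbers lay closer, at 7223 ± 61 and 6985 ± 203.

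The 100 most-read identifiers took a larger share of the reads in both D. virilis pools than in any D. montana pool. They held 23.3%, 24.3% and 27.2% of the gene reads in the D. montana pools and 28.9% and 33.7% in the D. virilis pools (p = 0.20, the minimum of the exact permutation test). The identifiers needed to reach 50% of the gene reads numbered 564 to 682 in D. montana pools and 481 and 349 in D. virilis pools. For the top 10 the order did not hold in every pool, since they took 7.25% to 8.92% in D. montana against 8.28% and 13.0% in D. virilis (p = 0.40 in the two-sided exact permutation test).

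Pools of the same species were far more alike than pools of different species, and the D. virilis pools were somewhat less alike than the D. montana pools. Over the 9249 tested identifiers, levels on the scale of log2(CPM + 1), with CPM the scaled count per 1000000 gene reads, correlated with Pearson r of 0.964 to 0.972 between D. montana pools. The correlation was 0.681 to 0.718 between pools of different species; identifiers are not independent replicates. Between the 2 D. virilis pools it was 0.926, nearer to the D. montana pairs than to the pairs across species. The median identifier differed by 0.23 to 0.29 log2 units between 2 D. montana pools, by 0.34 between the D. virilis pools and by 0.75 to 0.86 between a D. montana and a D. virilis pool. More than a 4-fold difference between D. montana pools was seen for 31 of the tested identifiers, whereas 332 differed by more than 4-fold between the 2 D. virilis pools, 266 of them higher in pool 1 and 66 in pool 2. Their median level was 11.02 CPM, against 44.80 CPM over all tested identifiers. The D. virilis pools also had fewer gene reads, and the part of counting error in these 4-fold differences was not tested. The biological coefficient of variation was 15.7% in the D. montana controls and 21.3% in the D. virilis controls when each was fitted alone, and 17.1% in the common fit that gives the tests below, so the D. virilis spread may be understated there.

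Differences in level between the species were found for 50.3% of the tested identifiers. Of 9249 tested, 4650 passed an adjusted p-value under 0.05, 2402 (26.0%) higher in D. montana and 2248 (24.3%) higher in D. virilis (edgeR, quasi-likelihood test, Benjamini-Hochberg adjustment). The tested identifiers were 60.3% of the 15342 and held 99.0% to 99.6% of the gene reads of each pool. Of the other 6093, 839 had no read in any of the 5 pools and 5254 had too few reads to be tested. The minimum level, equivalent to 10 reads in a library of median depth, had to be reached in at least 2 pools; 1470 tested identifiers reached it in 2 or more D. montana pools but not in both D. virilis pools, and 347 in both D. virilis pools but in fewer than 2 D. montana pools. Pools of the 2 species did not overlap for 6374 tested identifiers (68.9%), and this held for 4624 of the 4650 called ones. The balance of directions depended on the scaling. When library sizes were taken as all reads placed once, 1956 identifiers were higher in D. montana and 2887 in D. virilis, and with gene-read totals 2738 and 1739. The median log2 fold change of all tested identifiers was 0.03 with the scaling used here and lay 0.22 lower and 0.15 higher with those 2 scalings, so fold changes are best read relative to the median identifier.

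The differences were mostly moderate in size, with a long tail in both directions. On the log2 scale, as the D. montana level minus the D. virilis level, the 25th and 75th percentiles of the tested identifiers were −0.66 and 0.93, and the median absolute log2 fold change was 0.76. Among called identifiers the median was 3.05-fold for those higher in D. montana and 2.22-fold for those higher in D. virilis. For these sizes, 79 called identifiers with 0 reads in both D. virilis pools and 5 with 0 reads in all D. montana pools were set to the smallest fold that 3 reads over the group would allow. At least a 4-fold difference was seen for 843 of those higher in D. montana (35.1%) and 425 of those higher in D. virilis (18.9%). For larger sizes the order depended on this bound. At 16-fold or more there were at least 78 higher in D. montana against 147 higher in D. virilis with the bound, and 151 against 147 by the fitted values, so the larger differences are not shown to lie more often in either direction. The floor differs between the species with depth, 3 reads over the group being 2.06 CPM in D. virilis and 0.56 CPM in D. montana. Taken as shares of the gene reads, the called identifiers at least 16-fold higher in D. virilis by the fitted value held 3.92% and 10.1% of the reads in the D. virilis pools and 0.08% to 0.09% in the D. montana pools. Without FBgn0204552, which is described below and was high in D. virilis pool 2 alone, the shares in the D. virilis pools were 3.92% and 7.0%. The 151 at least 16-fold higher in D. montana by the fitted value held 1.33%, 1.04% and 1.35% of the reads in the D. montana pools and 0.035% and 0.020% in the D. virilis pools.

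**Figure D2:**
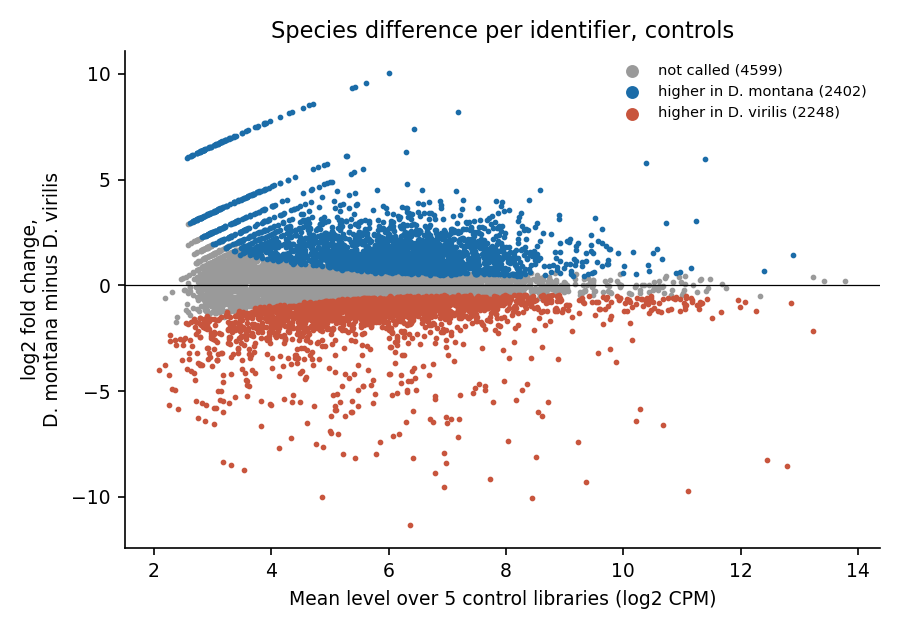
Each point is 1 of the 9249 tested identifiers, with its mean level over the 5 control libraries (log2 CPM, horizontal) and its fitted log2 fold change as D. montana minus D. virilis (vertical). Blue points are the 2402 called higher in D. montana, red points the 2248 called higher in D. virilis and grey points those not called; the slanting rows at the upper left are identifiers with 0 or few reads in D. virilis, whose fitted fold changes depend on the prior count.

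A difference of more than 2-fold could itself be shown for 1627 identifiers (17.6%), 1008 (10.9%) higher in D. montana and 619 (6.69%) higher in D. virilis (edgeR's test against a 2-fold threshold, adjusted p under 0.05). Without D. virilis pool 2 this number was 1081, with 632 higher in D. montana, and 814 of the 1627 passed in each of the 5 fits that left out 1 pool. The balance of directions over 2-fold also depended on the scaling. With library sizes of all reads placed once, 760 were higher in D. montana and 836 in D. virilis, and with gene-read totals 1200 and 512. At the other end, 2298 identifiers (24.8%) had a 95% interval of the difference that lay wholly within 2-fold in either direction. Of these, 148 were also called different. The 4599 identifiers that were not called therefore split into 2150 whose levels lay within 2-fold of each other by this interval and 2449 whose interval reached past it, so that their levels are not shown to be alike. Without D. virilis pool 2 the number within 2-fold was 1531.

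Calls were more frequent among abundant identifiers, whose differences also had smaller errors. The tested identifiers were ranked by mean level and split into 3 classes of 3083. In the lowest class 1195 (38.8%) were called, in the middle class 1525 (49.5%) and in the highest 1930 (62.6%). The median standard error of the log2 fold change was 0.52, 0.28 and 0.21 in these classes. The median absolute log2 fold change was 0.98 in the lowest class and 0.67 and 0.70 in the other two. More than a 2-fold difference was shown for 449 identifiers higher in D. montana and 193 higher in D. virilis in the highest class, and for 284 and 245 in the lowest.

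The identifiers that drew the most reads were largely shared, with the level of many of them still different. Of the 100 identifiers with the most reads in each species, 70 were the same, and of the top 10, 6 were. Among the top 100 of D. montana, 23 were called higher in D. montana, 36 higher in D. virilis and 41 were not called. Among the top 100 of D. virilis, 66 were called higher there and 3 higher in D. montana; a list chosen for its reads in one species leans toward that species by the choice itself. FBgn0016474 had the highest mean level over the 5 pools and was singled out after its values had been seen. It stood at 12822, 14406 and 17724 CPM in the D. montana pools and 10581 and 15043 CPM in the D. virilis pools. The species overlapped, the log2 fold change was 0.23 (95% interval −0.31 to 0.76) and the edgeR adjusted p was 0.47.

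The 4 identifiers with the largest differences were taken among called ones that had at least 10 reads in each of the 5 pools and did not overlap between the species, 2 in each direction. FBgn0197360 stood at 4689, 2935 and 5543 CPM in D. montana and at 94.1 and 49.9 CPM in D. virilis. Every D. montana pool lay above every D. virilis pool, with a fold of 61.7 and a difference on the log2 scale of 5.95 ± 0.39 (SE; edgeR adjusted p = 7.3e-08). FBgn0257407 had 2739, 1604 and 2182 CPM in D. montana against 53.3 and 28.0 CPM in D. virilis, a fold of 54.5, or 5.77 ± 0.35 (SE) on the log2 scale, at an edgeR adjusted p of 4.7e-08.

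In the other direction, FBgn0197572 stood at 47.1, 49.5 and 41.9 CPM in D. montana and at 8109 and 19875 CPM in D. virilis. It was near the same low level in all D. montana pools, and took 0.795% and 1.75% of the gene reads in the D. virilis pools, which differed from each other by more than 2-fold. On the log2 scale the difference was −8.24 ± 0.38 (SE; edgeR adjusted p = 3.5e-09), a fold of 303 in favour of D. virilis. Without D. virilis pool 2 it was −7.46, a fold of 176. FBgn0257252 had 9.30, 6.89 and 10.1 CPM in D. montana, on 11 to 20 reads per pool, and 1093 and 1932 CPM in D. virilis, which is −7.40 ± 0.29 (SE) on the log2 scale at an edgeR adjusted p of 1.3e-09. All 4 kept their direction in each of the 19 alternative analyses. They were chosen for large differences in these same libraries, so this is no separate support.

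FBgn0204552, singled out after its values had been seen, had the highest read count of any identifier in D. virilis pool 2. There it stood at 35146 CPM on 28851 reads, 3.10% of the gene reads (95% Wilson interval 3.06 to 3.13, counting error only). In D. virilis pool 1 it stood at 47.0 CPM on 30 reads, within the range of 42.7 to 50.8 CPM of the D. montana pools. The species test called it lower in D. montana (−8.52 ± 1.45 (SE) on the log2 scale, edgeR adjusted p = 0.00030), a call that rested on that 1 pool: without it the log2 fold change was 0.02 (edgeR adjusted p = 0.96). In all 5 acclimated libraries it stood between 30.6 and 49.5 CPM. It is 1 of 8 tested identifiers that differed by more than 16-fold between the D. virilis pools, 4 of them higher in pool 2. Together the 8 held 4.06% of the gene reads of pool 2 and 0.033% of those of pool 1. Of these 8, 3 were called different between the species.

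**Figure D3:**
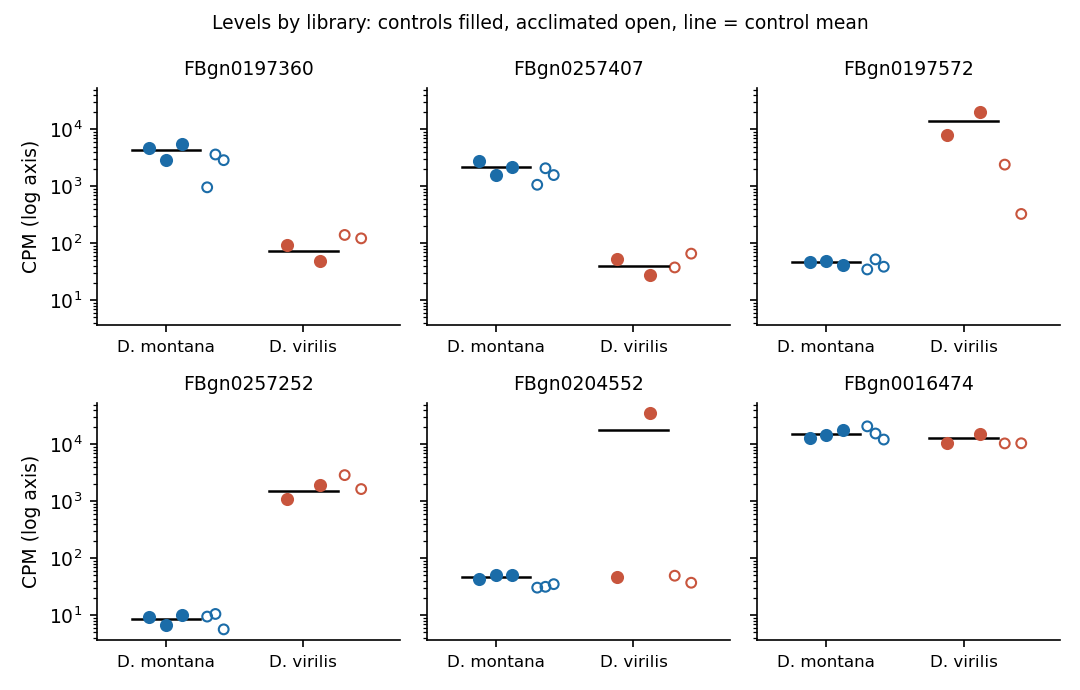
Level in CPM on a log axis of the 4 identifiers with the largest differences, of FBgn0204552 and of FBgn0016474 in each library. Filled points are control pools (3 of D. montana, 2 of D. virilis), the line is their mean and open points are acclimated pools on their own scaling; FBgn0204552 is at 35146 CPM in 1 D. virilis control pool and between 30.6 and 50.8 CPM in the other 9 libraries.

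The species difference varied with the number range of the identifier. The identifiers fall into 213 with the oldest FlyBase numbers (FBgn0005594 to FBgn0086440), 14270 in a middle range (FBgn0197334 to FBgn0211799) and 859 with the latest numbers (FBgn0256559 to FBgn0263275, with the 1 transcript identifier). In the middle range 8938 were tested, of which 26.1% were called higher in D. montana and 23.2% higher in D. virilis, and the median log2 fold change was 0.04. The oldest numbers had 164 tested, 57 higher in D. montana and 43 higher in D. virilis, with a median of 0.32. With library sizes of all reads placed once, 50 were higher in each species, and the median was 0.10 against −0.18 in the middle range. With at least 10 reads in each pool, 37 and 32 of 118 were called, and the medians were 0.12 and −0.04. Among the latest numbers 466 of 859 had no read in the 5 pools, against 368 of the 14270 in the middle range. Only 147 of the 859 were tested, and 93 of these reached the minimum level of the filter in both D. virilis pools and in fewer than 2 D. montana pools, so they were tested through the species in which they were high. Among the 147, 127 were called higher in D. virilis and 11 higher in D. montana, with a median log2 fold change of −4.77, which was −3.64 without D. virilis pool 2. The median depended on the minimum level. With none required it was −0.53 over 393 identifiers, 147 of them higher in D. virilis and 14 in D. montana. With at least 10 reads in each pool it was −3.69 over 43, of which 31 were higher in D. virilis and 7 in D. montana.

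Among the latest numbers, 123 of the 127 calls higher in D. virilis lay in the 409 identifiers that begin with FBgn0257. This range was picked out after the values had been seen. Of all 2248 calls higher in D. virilis, 2078 lay in the middle range. Together the 409 took 0.95%, 0.76% and 0.81% of the gene reads in the D. montana pools and 2.15% and 3.08% in the D. virilis pools. At least 10 reads were found for 40 to 53 of them per D. montana pool and for 112 and 134 per D. virilis pool, although the D. virilis pools were shallower. At least 1 read was found for similar numbers, 158 to 178 and 167 to 175.

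Of the 409, 132 were tested, and 92 of these reached the minimum level in both D. virilis pools and in fewer than 2 D. montana pools, so the counts that follow lean toward D. virilis by the filter. Higher levels in D. virilis were called for 123 and in D. montana for 4, and the median log2 fold change was −4.95. With no minimum level, 139 of 245 were higher in D. virilis and 4 in D. montana, with a median of −3.17. With at least 10 reads in each pool, 28 of 35 were higher in D. virilis and 4 in D. montana, with a median of −4.11. Without D. virilis pool 2, 102 of 121 were higher in D. virilis and 4 in D. montana, with a median of −4.09. Both FBgn0257407 and FBgn0257252 above belong to this range, in opposite directions. By the fitted values it made up 93 of the 147 called identifiers at least 16-fold higher in D. virilis and 1 of the 151 at least 16-fold higher in D. montana. Whether these identifiers match the reads of the 2 species equally well was not tested.

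**Figure D4:**
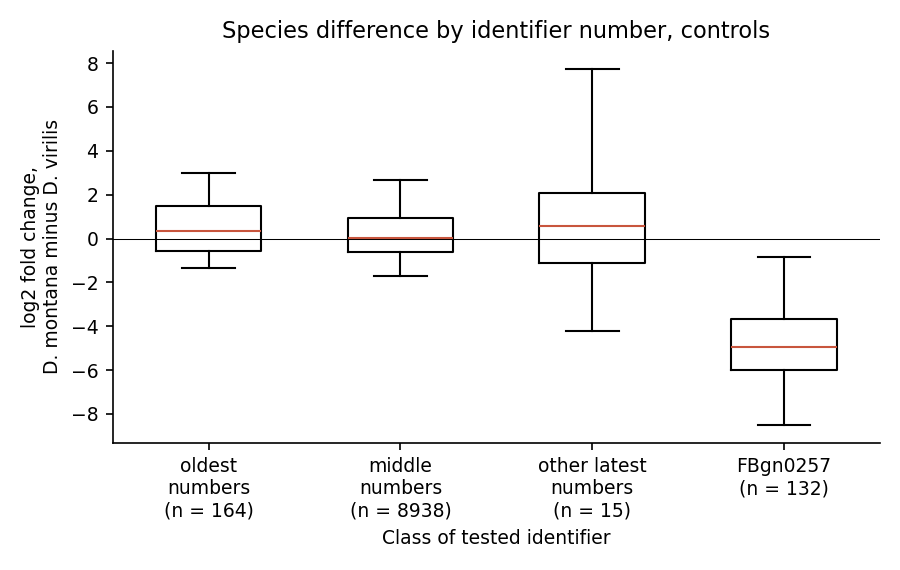
Fitted log2 fold change (D. montana level minus D. virilis level) of tested identifiers by number range; boxes span the 25th to 75th percentiles with the median marked, and whiskers the 5th and 95th percentiles. The medians of the oldest and middle ranges are 0.32 and 0.04, and that of the 132 identifiers beginning with FBgn0257 is −4.95; 92 of these 132 were tested through their level in D. virilis, with fewer than 2 D. montana pools at the minimum level.

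Some identifiers had reads in one species and none in the other. The D. virilis pools held 1582221 gene reads in sum and the D. montana pools 5235993. A count of 0 therefore leaves a higher level possible in D. virilis. At least 10 reads in each pool of the species were found for 8465 identifiers in D. montana and 6807 in D. virilis. At least 10 reads in each D. montana pool and 0 in both D. virilis pools were found for 63 identifiers, 60 of them in the middle number range. Their levels were at least 2.81-fold to 45.7-fold higher in D. montana, with a median bound of 5.10-fold. The converse, at least 10 reads in both D. virilis pools and 0 in all D. montana pools, was found for 4, which all begin with FBgn0257. These were at least 58.5-fold to 423-fold higher in D. virilis. The bounds in both directions set the species without reads at 3 reads over its group. They cover counting error alone, not the variation among pools. In the acclimated libraries, 27 of the 63 again had 0 reads in both D. virilis pools, and 1 of the 4 had 0 reads in all D. montana pools.

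The acclimated pools give the same contrast in libraries that the control comparison did not use, with the same strains and pool sizes and the same order of stated ages. There 5310 of 9573 tested identifiers (55.5%) were called, 2769 (28.9%) higher in D. montana and 2541 (26.5%) higher in D. virilis. Of the 2402 control calls higher in D. montana, 2372 were tested in the acclimated pools. The same direction was called for 1942 of them (81.9%), the same sign was found for 2321 (97.8%) and the opposite direction was called for 11. Of the 2207 control calls higher in D. virilis that were tested, 1740 (78.8%) were called the same way, 2144 (97.1%) had the same sign and 6 were called the opposite way. Over all 9077 identifiers tested in both, 85.6% had the same sign. The sizes were also similar, with a median log2 fold change of 1.60 in controls and 1.55 in acclimated pools for the first set, and of −1.13 and −1.16 for the second. Across the 9077 identifiers the fold changes correlated with Pearson r = 0.85 and Spearman rho = 0.86, and across the 6190 with at least 10 reads in all 10 libraries with 0.88 and 0.86; as the points share strains and annotation, this is a description.

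**Figure D5:**
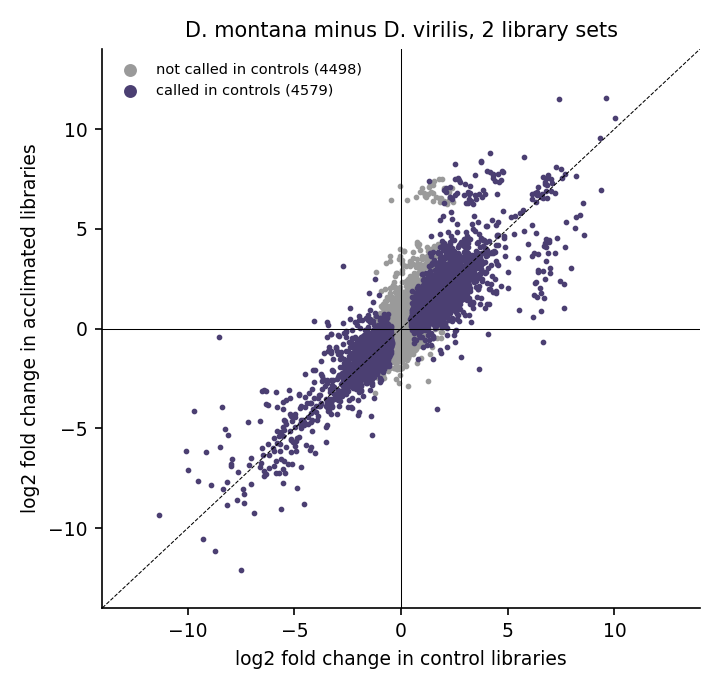
Log2 fold change, as D. montana level minus D. virilis level, of 9077 identifiers in the control libraries (horizontal) and in the acclimated libraries (vertical), with the line of equality dashed. Purple points are the 4579 called in controls, most of which lie to the lower left and upper right of the zero lines, and 17 were called in opposite directions.

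Of the identifiers with the largest control differences, FBgn0257252 differed as much in the acclimated pools (log2 fold change −8.06, SE 0.35) and FBgn0257407 had 4.90 (SE 0.37). FBgn0197360 had 4.25 (SE 0.51) there. FBgn0197572 had −5.02 (SE 0.62), with 2409 and 328 CPM in the acclimated D. virilis pools against 8109 and 19875 CPM in the controls. The difference between the 2 contrasts did not pass for any of these 4 (edgeR adjusted p = 0.11 to 0.66). FBgn0016474 was called in the acclimated pools (0.63 ± 0.24 (SE) on the log2 scale, edgeR adjusted p = 0.041), and its difference from the control contrast was not shown (edgeR adjusted p = 0.64). Of the 2298 identifiers within 2-fold in controls, 2140 had an estimate under 2-fold in the acclimated pools, 1337 were within 2-fold by their interval there too, and 13 were shown to differ by more than 2-fold, which 22.3% of all tested identifiers were there.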

How the data were processed

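Raw read counts per FlyBase identifier were deposited, 1 file per library. The authors made them with HTSeq, per the submitters' processing notes. Which aligner, genome build, annotation, strand setting and counting mode they used is not given in the sources used here. Each file ends in 5 counter rows without a gene, which entered neither library sizes nor tests. Identifiers were tested in edgeR 4.0.16 (R 4.3.3, limma 3.58.1) with the quasi-likelihood F-test on the 5 control libraries. Scaling was by TMM, filterByExpr kept identifiers by group (min.count 10, min.total.count 15), and p-values were adjusted by Benjamini-Hochberg over all tested identifiers, with a threshold of 0.05. Differences over 2-fold were tested with glmTreat in the same fit. The standard error of a log2 fold change was derived from its unshrunken value and the square root of its F, and 95% intervals used the t quantile of the fit. The acclimated libraries were fitted alone in the same way, and the difference between the contrasts in all 10 libraries. Library measures were compared by exact permutation tests in SciPy 1.17.1. The level that a count of 0 still allows (3 reads, counting error only) was between 1.51 and 1.98 CPM for D. montana controls and 3.22 and 4.61 CPM for D. virilis controls. The code was tested on simulated data. DESeq2 1.42.0 and limma-voom were alternatives, with others of scaling, filter, depth and left-out pools. Largest differences were taken among called identifiers with at least 10 reads in each pool and no overlap between species, 2 per direction. The libraries, number ranges and rules were chosen with earlier results of these data known. Gene lists by name could not be matched, and none was tested.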

Additional observations from a re-analysis of the deposited data

Results flagged for a closer look

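The species difference itself differed between control and acclimated flies for 22 of 9811 identifiers in a fit of all 10 libraries (edgeR's interaction test, adjusted p under 0.05). Of these, 19 were among the control calls, which made up 50.3% of the 9249 identifiers tested in controls. The same control libraries enter both tests, so this overlap is no separate support. No group held enough pools for a test of single outlying samples.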

How the results depend on the processing

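The number of called identifiers stayed within 1.5 times of 4650 in 18 of 19 alternatives, the exception being libraries thinned to the smallest total (3058, of which 1370 higher in D. virilis). Of the 7887 identifiers tested at that depth, 1070 differed by more than 2-fold (375 higher in D. virilis) and 1492 lay within 2-fold. Requiring at least 10 reads in each library left 6553 identifiers tested instead of 9249. Of these, 820 were over 2-fold, 552 higher in D. montana and 268 in D. virilis. Within 2-fold lay 2511, against 2298 in the main fit. Under the same requirement, 1795 of 6723 tested were called higher in D. montana in the acclimated pools. The fits with 1 control pool left out tested 8617 to 9834 identifiers, so their counts are not out of 9249. With 1 pool left out, the control calls numbered 3363 to 4303, those over 2-fold 1081 to 1581, of which 632 to 970 higher in D. montana, and those within 2-fold 1531 to 2186; leaving out a D. virilis pool leaves 1, assumed to vary like the D. montana pools. Of the 4650, 2655 were called in all 5 such fits and 8 changed sign in 1 or more. FBgn0204552 ranged from −9.53 to 0.022 in log2 fold change in these fits. DESeq2's Wald test called 3825, limma-voom 4415, and 4525 with sample quality weights, an alternative added after seeing the data, as was the requirement of no overlap (4624). Higher calls in D. montana made up 40.4% to 61.2% of calls over the alternatives, against 51.7%. The share of reads on genes was 15.96 percentage points higher in D. montana, and 9.31 lower (−9.31) without reads placed more than once, whose cause was not tested. The replicate block gave 4467 calls. The deviations of same-numbered pools had correlations of 0.0067 and 0.0051 across identifiers. With only 2 D. virilis pools, whose deviations mirror each other, this cannot tell whether the numbers pair the pools.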
